A study of Mus musculus with 14 samples.

Results

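The immediate early genes followed here were 10 genes chosen by name: Fos, Junb, Egr1, Egr3, Arc and Nr4a1, which are widely used as readouts of neuronal activity, and Jun, Atf3, Ier2 and Dusp1, which are better known from stress and injury. All 10 were among the 13866 genes of the deposited count table, and all 10 passed the filter on low counts that left 11852 genes to test. The division into 6 activity genes and 4 stress genes follows textbook use, and several of the genes respond to both kinds of stimulus.

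Immediate early genes are transcribed from pre-assembled factors, without the need for new protein, soon after a cell is depolarised, stimulated by a growth factor or stressed. Calcium entry and MAP kinase signalling phosphorylate CREB and the ternary complex factors that sit with SRF at their promoters, and the transcripts are short-lived, so that a brain sample holds a record of recent signalling. Fos, Jun, Junb and Atf3 encode bZIP factors of the AP-1 and ATF families, Egr1 and Egr3 zinc finger factors, Nr4a1 an orphan nuclear receptor, Arc a synaptic protein that promotes the removal of AMPA receptors from the postsynaptic membrane, and Dusp1 a phosphatase that switches off MAP kinases.

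RNA was taken from the brain of 14 mice of 19 days of age, 1 library per mouse, in a model of neuronopathic Gaucher disease (nGD). Conduritol B-epoxide (CBE), an irreversible inhibitor of acid beta-glucosidase, or PBS was injected daily from the second postnatal week into C57BL/6JOlaHsd mice (WT) or into MyTrMaSt null mice. The CBE dose was the highest the paper used, at which it reports extremely severe disease and survival little beyond the age sampled here. MyTrMaSt null mice lack Myd88, Trif, Mavs and Tmem173 in every cell, and with them signalling from Toll-like receptors, RIG-I-like receptors and STING. The groups were WT + PBS (n = 3), WT + CBE (n = 3), MyTrMaSt + PBS (n = 3) and MyTrMaSt + CBE (n = 5), and the question was which changes after CBE depend on those innate adaptors. The WT mice were purchased, were not described as littermates of the MyTrMaSt mice, and so genotype and colony cannot be told apart. CBE blocks the enzyme in all tissues, and the samples were brain homogenates: fewer cells of a type and less RNA per cell cannot be told apart.

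The libraries held 1290616 to 3704691 counts of transcript 3' ends, and a tested gene had a median count of 29 to 107 in a library. Levels are counts divided by the TMM-scaled library total in units of 1e+06 counts (CPM), given per library or as mean ± SD. A gene is said to rise or fall where the quasi-likelihood F test of edgeR, in 1 model over all 14 libraries, gave a Benjamini-Hochberg adjusted p below 0.05 over all tested genes, and it is called a DEG where the change was also at least 2-fold. WT + PBS replicate 1 had the lowest total and stood apart: its deviation from the other WT + PBS libraries followed the GC content of the transcript ends across genes, with a Spearman rho of 0.562 over 11436 genes. Xist, which marks female cells, had 0 counts in all WT + PBS libraries and in MyTrMaSt + CBE replicate 4, 1 count in WT + CBE replicate 2 and 18 to 47 in the others, so the groups differed in sex, which the labels do not give. Within groups it varied mainly through WT + CBE replicate 2 and MyTrMaSt + CBE replicate 4. Fits with the Xist level as a covariate therefore rest mainly on these 2 libraries and cannot separate sex from their other traits. In WT the neuron markers summed to 4371 to 4658 CPM with PBS and 3415 to 3631 CPM with CBE, and the microglia markers to 295 to 342 and 1149 to 1303, in a tissue where no listed marker of either was at 0 throughout a group.

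The bases before the transcription start of 4 genes are shown because, among the 6 genes with a sequence, they had the largest changes after CBE (Atf3, Nr4a1) or because they hold the best-known CREB binding sequence or its core (Dusp1, Fos). Each run covers the 250 bases before the start in the RefSeq annotation of GRCm38.p6, 5' to 3' on the gene's strand, with every match to TGACG, the half-site of the cAMP response element (CRE), in capitals on either strand. The Atf3 run is chr1:191183334-191183583 (minus strand), the Nr4a1 run chr15:101266596-101266845 (plus), the Dusp1 run chr17:26508473-26508722 (minus) and the Fos run chr12:85473640-85473889 (plus).
Atf3: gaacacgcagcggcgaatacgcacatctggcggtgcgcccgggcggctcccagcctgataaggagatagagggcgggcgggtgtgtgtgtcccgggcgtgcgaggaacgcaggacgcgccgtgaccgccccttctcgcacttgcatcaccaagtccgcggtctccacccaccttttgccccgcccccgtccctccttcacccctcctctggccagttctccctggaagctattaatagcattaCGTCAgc
Nr4a1: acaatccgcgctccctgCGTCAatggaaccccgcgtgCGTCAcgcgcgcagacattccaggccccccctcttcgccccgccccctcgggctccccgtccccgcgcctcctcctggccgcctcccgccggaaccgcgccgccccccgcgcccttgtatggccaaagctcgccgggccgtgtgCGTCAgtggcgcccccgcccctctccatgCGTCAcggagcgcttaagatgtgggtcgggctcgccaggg
Dusp1: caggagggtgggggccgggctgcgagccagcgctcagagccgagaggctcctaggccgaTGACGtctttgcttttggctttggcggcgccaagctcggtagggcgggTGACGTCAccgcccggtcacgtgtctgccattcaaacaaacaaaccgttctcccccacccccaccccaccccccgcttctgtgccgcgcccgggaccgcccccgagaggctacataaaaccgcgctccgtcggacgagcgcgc
Fos: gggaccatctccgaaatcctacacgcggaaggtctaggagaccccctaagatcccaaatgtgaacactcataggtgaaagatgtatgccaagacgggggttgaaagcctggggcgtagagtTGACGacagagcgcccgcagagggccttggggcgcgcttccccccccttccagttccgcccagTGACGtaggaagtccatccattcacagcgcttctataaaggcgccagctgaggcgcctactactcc

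Of the 10 genes, 6 had such a sequence in the table used, the other two being Junb and Jun, while Egr1, Egr3, Arc and Ier2 are not printed. Dusp1 held the whole CRE, TGACGTCA, which 1.55% of 32851 windows of the same length hold. The half-site, searched for after the sequences had been seen, was in 5 of the 6 windows and in 17.8% of all windows: 4 times in Nr4a1, 3 times in Dusp1 (the CRE counts for both of its strands), 2 times in Fos, and 1 time each in Atf3 and Junb. An EGR sequence, GCGTGGGCG or GCGGGGGCG, was in Nr4a1 and in 3.06% of windows. The AP-1 sequences TGACTCA and TGAGTCA (4.46% of windows) and the CArG box bound by SRF (1.47%) were in none of the 6 windows, all searched on both strands. The Atf3, Nr4a1 and Dusp1 starts used here lie inside longer annotated genes, so other promoters of these 3 genes are not covered.

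Atf3, a bZIP factor induced by cellular stress and by axon injury, was the only one of the 10 that rose after CBE, and it did so in both genotypes. The WT + PBS libraries held 1, 16 and 7 counts, or 0.902, 4.42 and 2.95 CPM, and those of WT + CBE 34.6, 24.4 and 23.5 CPM. In MyTrMaSt mice the level was 2.42, 1.59 and 3.17 CPM after PBS, and 19.9, 7.89, 12.97, 22.2 and 17.6 CPM after CBE. Every CBE library was above every PBS library. The rise was 8.43-fold in WT (95% interval 4.65 to 15.3, log2 fold change 3.08, SE 0.408, edgeR adjusted p = 3.85e-05) and 6.74-fold in MyTrMaSt (3.78 to 11.99, log2 fold change 2.75, SE 0.395, adjusted p = 0.000221). The MyTrMaSt + CBE libraries all lay below the WT + CBE libraries, with means of 16.1 ± 5.71 and 27.5 ± 6.18 CPM, a difference of -0.81 on the log2 scale that did not pass the test (adjusted p = 0.241). The interaction, the change with CBE in MyTrMaSt minus that in WT, was -0.32 for Atf3 with a 95% interval of -1.67 to 1.02 (adjusted p = 0.856), and ranged from -0.85 (without WT + PBS replicate 2) to -0.080 (without MyTrMaSt + PBS replicate 3) with 1 library left out. Without WT + PBS replicate 1 and MyTrMaSt + CBE replicate 4 the difference between the CBE groups was -0.96 (adjusted p = 0.0166).

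**Figure D1:**
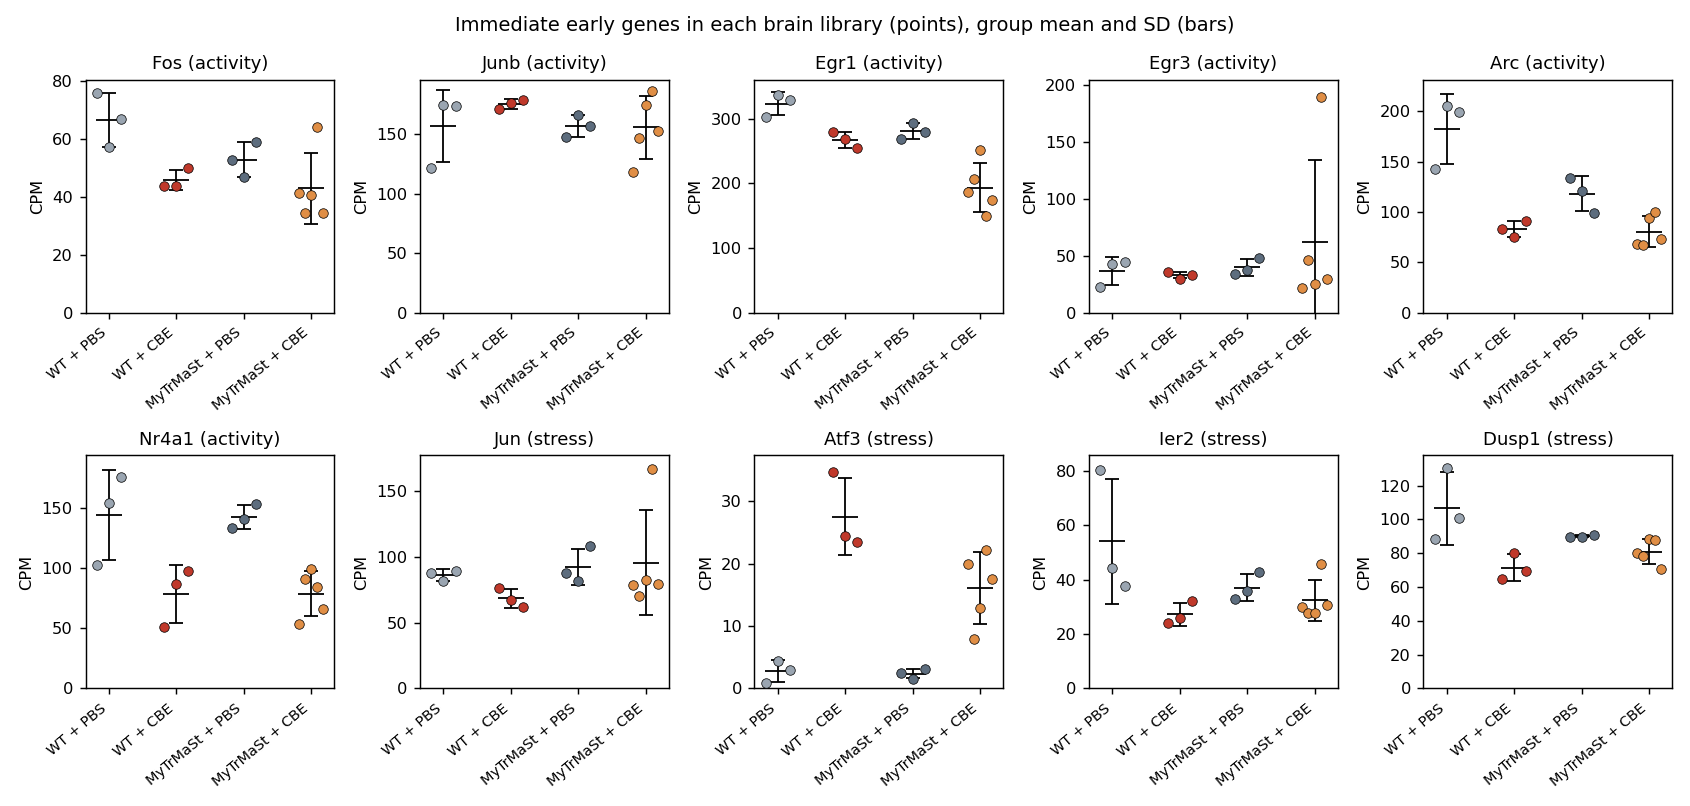
Level of each immediate early gene in each brain library in CPM (points), with the group mean and SD (bars), for WT + PBS, WT + CBE, MyTrMaSt + PBS (n = 3 each) and MyTrMaSt + CBE (n = 5); each panel starts at 0 and has its own scale, and the lower SD bar of Egr3 in MyTrMaSt + CBE runs below 0 and is cut. Atf3 is higher in all CBE libraries, Arc and Nr4a1 are lower after CBE, and MyTrMaSt + CBE replicate 4 lies at 189 CPM for Egr3 and 166 CPM for Jun.

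Arc, whose mRNA is carried to active dendrites, fell in WT. The WT + PBS libraries were at 143, 206 and 200 CPM and the WT + CBE libraries at 83.2, 75.6 and 91.0 CPM, with no overlap. The fall was 2.21-fold (log2 fold change -1.14, SE 0.193, edgeR adjusted p = 0.000528), and Arc was the one DEG among the genes that fell. In MyTrMaSt the PBS libraries were at 134, 121 and 99.3 CPM and the CBE libraries at 67.8, 67.6, 94.4, 99.9 and 73.2 CPM, so that the groups met at their edges. That log2 fold change was -0.55 (SE 0.168) and just missed the threshold (adjusted p = 0.0518). The alternatives fell on both sides of it. The adjusted p was 0.0294 with DESeq2, 0.0445 with limma voom and 0.0221 with only the groups compared, but 0.0614 with the Xist level as a covariate and 0.0580 on library totals without TMM. With 1 library left out, Arc passed without WT + PBS replicate 1 (0.00781) or MyTrMaSt + CBE replicate 4 (0.0299), and the adjusted p was up to 0.201 otherwise (without MyTrMaSt + PBS replicate 1). The 2 CBE groups were at 83.3 ± 7.71 and 80.6 ± 15.4 CPM and the PBS groups at 183 ± 34.8 in WT and 118 ± 17.5 in MyTrMaSt. The PBS groups did not overlap, and their difference of -0.64 on the log2 scale gave an adjusted p of 0.144 with edgeR. It passed with DESeq2 (0.0431) and without WT + PBS replicate 1 (0.0358), and did not with limma voom (0.170), with only the groups compared (0.582), with the Xist level as a covariate (0.632) or without MyTrMaSt + PBS replicate 3 (0.515). The interaction for Arc was 0.59 (95% interval 0.05 to 1.13), with an unadjusted p of 0.0344 and an adjusted p of 0.370.

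Nr4a1, also called Nur77, fell in both genotypes. In WT mice it was at 103, 154 and 176 CPM with PBS and at 51.2, 86.8 and 98.2 CPM with CBE. MyTrMaSt mice had 134, 141 and 154 CPM with PBS and 53.4, 91.6, 99.3, 84.7 and 66.2 CPM with CBE. Within each genotype every CBE library was below every PBS library. The log2 fold changes were -0.91 in WT (SE 0.255, edgeR adjusted p = 0.0287) and -0.85 in MyTrMaSt (SE 0.219, adjusted p = 0.0219), and the interaction was 0.05 with an interval of -0.66 to 0.76 (adjusted p = 0.962). Both calls are near the threshold: in WT the log2 fold change was -0.83 with the Xist level as a covariate (adjusted p = 0.198), -0.88 with only the groups compared (0.165) and -0.85 with at least 10 counts in every library (0.0575). The call in WT was lost without WT + PBS replicate 2 or 3 or WT + CBE replicate 1 or 2 (up to 0.167), and that in MyTrMaSt without MyTrMaSt + PBS replicate 1, 2 or 3 or MyTrMaSt + CBE replicate 5 (up to 0.115).

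Egr1, a zinc finger factor with high basal levels in the cortex, fell in MyTrMaSt. Its levels were 268, 294 and 280 CPM in MyTrMaSt + PBS and 186, 206, 251, 150 and 175 CPM in MyTrMaSt + CBE. The groups did not overlap, and the log2 fold change was -0.54 (SE 0.141, edgeR adjusted p = 0.0252). In WT it was at 303, 337 and 329 CPM with PBS and at 279, 268 and 254 CPM with CBE. The WT groups did not overlap either, but the log2 fold change of -0.27 did not pass (SE 0.160, adjusted p = 0.315). The interaction was -0.26 (95% interval -0.71 to 0.19, adjusted p = 0.625), which leaves the genotypes not told apart for Egr1. MyTrMaSt + CBE lay below WT + CBE in all libraries, with a log2 difference of -0.46 (adjusted p = 0.135, and 0.0317 without WT + PBS replicate 1 or 0.0241 without MyTrMaSt + CBE replicate 3). The call in MyTrMaSt was lost without MyTrMaSt + PBS replicate 1, 2 or 3 or MyTrMaSt + CBE replicate 5 (adjusted p of 0.0600 to 0.105), and just lost with the Xist level as a covariate (0.0511). With an offset for GC content it was just lost too (log2 fold change -0.47, adjusted p = 0.0503), while Egr1 in WT then passed (-0.51, adjusted p = 0.0488) and the interaction was 0.039.

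Fos, the partner of Jun in AP-1 and the most used activity marker, was lower with CBE in WT without passing the test. The WT + PBS libraries were at 75.8, 57.2 and 67.1 CPM and the WT + CBE libraries at 43.9, 43.6 and 50.01 CPM, with no overlap. Its log2 fold change was -0.53 (SE 0.215, edgeR adjusted p = 0.134, and 0.0477 without MyTrMaSt + CBE replicate 4). In MyTrMaSt, Fos was at 52.8, 46.8 and 58.8 CPM with PBS and at 41.3, 34.6, 40.5, 64.0 and 34.4 CPM with CBE, where replicate 4 was above the whole PBS group. That log2 fold change was -0.30 (SE 0.188, adjusted p = 0.350), and without WT + PBS replicate 1 and MyTrMaSt + CBE replicate 4 it was -0.47 (adjusted p = 0.0170). Junb, an AP-1 factor that restrains Jun, was at 157 ± 30.1 CPM with PBS and 175 ± 4.19 CPM with CBE in WT, and at 157 ± 9.19 and 156 ± 26.3 CPM in MyTrMaSt. Its groups overlapped in both genotypes, with log2 fold changes of 0.15 (95% interval -0.21 to 0.51) and -0.01 (-0.34 to 0.31). Exons of Junb overlap those of Prdx2 on the other strand, and the use of strand in counting is not stated.

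Egr3, a factor of the same family that muscle spindles need to form, depended on a single library in MyTrMaSt. In WT mice it was at 22.6, 42.6 and 44.7 CPM with PBS and 35.8, 30.04 and 33.1 CPM with CBE. The MyTrMaSt + PBS libraries were at 33.8, 37.8 and 47.9 CPM and those of MyTrMaSt + CBE at 21.8, 46.6, 25.1, 189 and 29.7 CPM. The log2 fold changes were -0.20 in WT (SE 0.620, edgeR adjusted p = 0.893) and 0.63 in MyTrMaSt (SE 0.530, adjusted p = 0.509). Without MyTrMaSt + CBE replicate 4 the latter turned to -0.37.

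Among the stress genes other than Atf3, none rose. Jun, the AP-1 factor phosphorylated by JNK and induced in injured neurons, was at 87.5, 81.2 and 89.4 CPM with PBS and 76.2, 67.1 and 62.1 CPM with CBE in WT. The WT groups did not overlap, but the log2 fold change of -0.32 did not pass (SE 0.259, edgeR adjusted p = 0.496). In MyTrMaSt it was at 87.7, 81.9 and 108 CPM with PBS and 78.7, 70.2, 82.7, 166 and 79.1 CPM with CBE, a log2 fold change of 0.04 that was -0.25 without replicate 4. Exons of Jun overlap those of the antisense gene Junos.

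Ier2, a small nuclear protein of the immediate early response, fell in WT. The WT + PBS libraries were at 80.3, 44.2 and 37.5 CPM and the others of that genotype at 23.9, 25.8 and 31.9 CPM. The groups did not overlap, and the log2 fold change was -0.95 (SE 0.268, edgeR adjusted p = 0.0287). Ier2 has a GC content of 55.2% in the last 500 bases of its transcript, the highest of the 10, and its highest level was in the library that deviated with GC content. With an offset for GC content the log2 fold change was still -0.86 (adjusted p = 0.0123). Without that library it was -0.61 (adjusted p = 0.0679), and without it and MyTrMaSt + CBE replicate 4 it was -0.61 and passed (0.0196). The call was also lost without WT + CBE replicate 1 or 2 (0.124 and 0.109), with only the groups compared (0.160) and with the Xist level as a covariate (-0.64, adjusted p = 0.342). In MyTrMaSt, Ier2 was at 32.8, 35.7 and 42.6 CPM with PBS and 30.003, 27.8, 27.6, 45.8 and 30.5 CPM with CBE, with a log2 difference of -0.20 (SE 0.229, adjusted p = 0.634). The interaction was 0.75 with an unadjusted p of 0.0484 and an adjusted p of 0.396, and it was 0.41 without WT + PBS replicate 1, 0.44 with the GC offset, 0.33 with the Xist level as a covariate and 0.27 without both libraries.

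Dusp1 fell in WT as well. Its levels were 88.4, 131 and 101 CPM with PBS and 64.6, 80.3 and 69.3 CPM with CBE. Those groups did not overlap, and the log2 fold change was -0.60 (SE 0.163, edgeR adjusted p = 0.0250). The MyTrMaSt + PBS libraries lay within a narrow range, at 89.8, 89.6 and 90.9 CPM, and the MyTrMaSt + CBE libraries at 79.9, 78.5, 88.3, 87.6 and 70.8 CPM. All CBE libraries were below all PBS libraries here too, by a log2 fold change of -0.15 that did not pass (SE 0.143, adjusted p = 0.554). The call in WT was lost on library totals without TMM (log2 fold change -0.54, adjusted p = 0.0605), with at least 10 counts in every library (-0.53, 0.0637), with only the groups compared (-0.57, 0.188) and with the Xist level as a covariate (-0.45, 0.260). It was also lost without WT + PBS replicate 2 (-0.41, adjusted p = 0.128), WT + CBE replicate 1 (-0.51, 0.138) or WT + CBE replicate 3 (-0.57, 0.0928). Exons of Dusp1 overlap those of Ergic1 on the other strand.

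Counted together, 1 of the 10 genes rose and 4 fell in WT, where 6.70% of all tested genes rose and 3.89% fell. In MyTrMaSt 1 rose and 2 fell, against 5.32% and 2.44% of all tested genes. DEGs numbered 2 in WT (Atf3 and Arc) and 1 in MyTrMaSt (Atf3), where DEGs made up 6.40% and 3.89% of all tested genes. The WT groups did not overlap for 8 of the 10 genes, 7 of them lower with CBE, and for 27.9% of all genes. In MyTrMaSt 4 of the 10 did not overlap, 3 of them lower, against 22.5% of all genes. The median log2 fold change of the 10 was -0.43 in WT and -0.18 in MyTrMaSt, while that of all tested genes was -0.02 and 0.01. The interaction called 0 of the 10 with edgeR (2 at an unadjusted p below 0.05, Arc and Ier2; 0 with DESeq2 or limma voom) and 0.489% of all genes. MyTrMaSt + CBE against WT + CBE called 0 of the 10 (2 at an unadjusted p below 0.05, Egr1 and Atf3; 0 with DESeq2) and 2.54% of all genes. MyTrMaSt + PBS against WT + PBS called 0 (1 at an unadjusted p below 0.05, Arc, which DESeq2 called) and 0.186% of all genes.

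**Figure D2:**
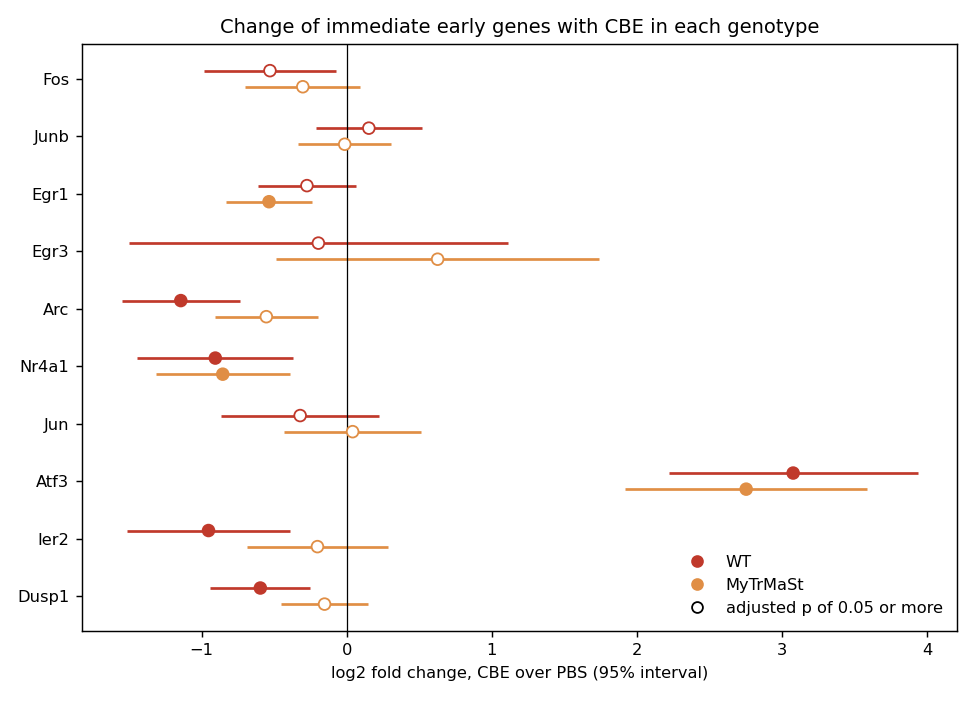
Log2 fold change of CBE over PBS of each immediate early gene in WT (red) and MyTrMaSt (orange), with 95% intervals from the edgeR fit; filled points have an adjusted p below 0.05. Atf3 stands at 3.08 and 2.75, the calls below 0 are Arc, Nr4a1, Ier2 and Dusp1 in WT and Egr1 and Nr4a1 in MyTrMaSt, and the intervals of the 2 genotypes overlap for all 10 genes.

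The activity genes were set against the stress genes as the difference of their mean log2(CPM + 0.5) in each library. It went from 1.82 ± 0.188 with PBS to 1.001 ± 0.131 with CBE in WT, and from 1.82 ± 0.156 to 0.92 ± 0.284 in MyTrMaSt, so that within each genotype every CBE library was below every PBS library. The shift rested on Atf3. With Atf3 left out, a choice made after it was seen to be the one gene that rose, the difference was 0.63 ± 0.377, 0.78 ± 0.068, 0.67 ± 0.087 and 0.43 ± 0.174 in the same order, higher with CBE in WT and lower in MyTrMaSt. The median log2 fold change of the 6 activity genes was -0.40 in WT and -0.42 in MyTrMaSt, and that of the 4 stress genes -0.46 and -0.06. Of the neuron markers, 3 of 8 fell in WT and 1 of 8 in MyTrMaSt, against 3.89% and 2.44% of all tested genes. The other 5 and 7 were not called, and the median log2 fold changes of the list were -0.22 and -0.15. By group mean, Rbfox3 (776 to 799 CPM) and Gad2 (101 to 116 CPM) were higher with CBE in WT. Gad2 (143 to 150 CPM) and Slc17a7 (147 to 209 CPM) were higher in MyTrMaSt. In each genotype the means of the other markers were lower. In MyTrMaSt the neuron markers summed to 4685 to 5507 CPM with PBS and 3729 to 4556 with CBE. The microglia markers moved with the rise of Atf3, with 6 of 8 higher in each genotype, against 6.70% of all tested genes in WT and 5.32% in MyTrMaSt. The part of the cell types in these changes was not tested.

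**Figure D3:**
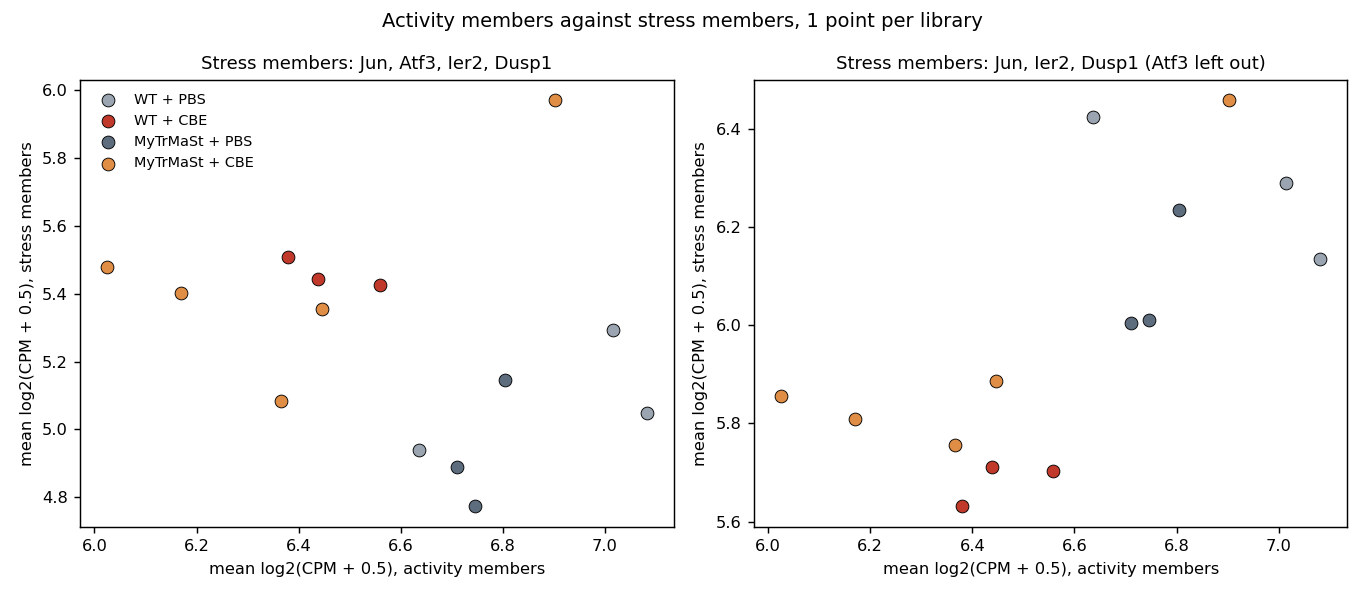
Mean log2(CPM + 0.5) of the 6 activity genes (horizontal) against that of the stress genes (vertical), 1 point per library, with Atf3 among the stress genes (left) and with Atf3 left out (right); axes do not start at 0. Apart from MyTrMaSt + CBE replicate 4, with an activity mean of 6.90, the CBE libraries lie to the left of all PBS libraries in both panels; they lie above most PBS libraries on the left and below all of them on the right.

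MyTrMaSt + CBE replicate 4 was the highest of its 5 libraries for 7 of the 10 genes, while 28.5% of all tested genes were highest there. Egr3 was 4.06 times the next highest library, the 16th largest such ratio among 11851 genes, Jun 2.01 times, Fos 1.55 times and Ier2 1.4997 times. Egr1 was instead the lowest of the group in that library, and Nr4a1 and Dusp1 were within the range of the others. Among the activity-regulated genes outside the 10, 14 of 26 (53.8%) were highest in that library. Of 26 tested, 11 (42.3%) exceeded the next highest library by more than 1.5 times, against 3.54% of all genes. Inhba, the activin beta A subunit, was at 127 CPM against at most 10.1 CPM in the other 4 libraries, Nptx2, a secreted pentraxin of excitatory synapses, at 260 against 40.2 CPM, and Fosb at 25.1 against 4.13 CPM. The neurotrophin Bdnf was 2.31 times, the neuropeptide precursor Vgf 3.14 times and the secretogranin Scg2 2.04 times the next highest library. Npas4 (0.324 times), Nr4a2 (0.519), Egr4 (0.531), Egr2 (0.632) and Homer1 (0.645) were below the highest of the other libraries, as were most tested genes. Egr2 was at 3.94 CPM there, within the 2.74 to 6.23 CPM of the other 4. The library was singled out after its values had been seen. It had 2129161 counts, 0 Xist counts where the other 4 had 18 to 39, the highest neuron marker sum of the group (4556 CPM) and the lowest microglia sum (726 CPM), and their part in its levels was not tested.

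**Figure D4:**
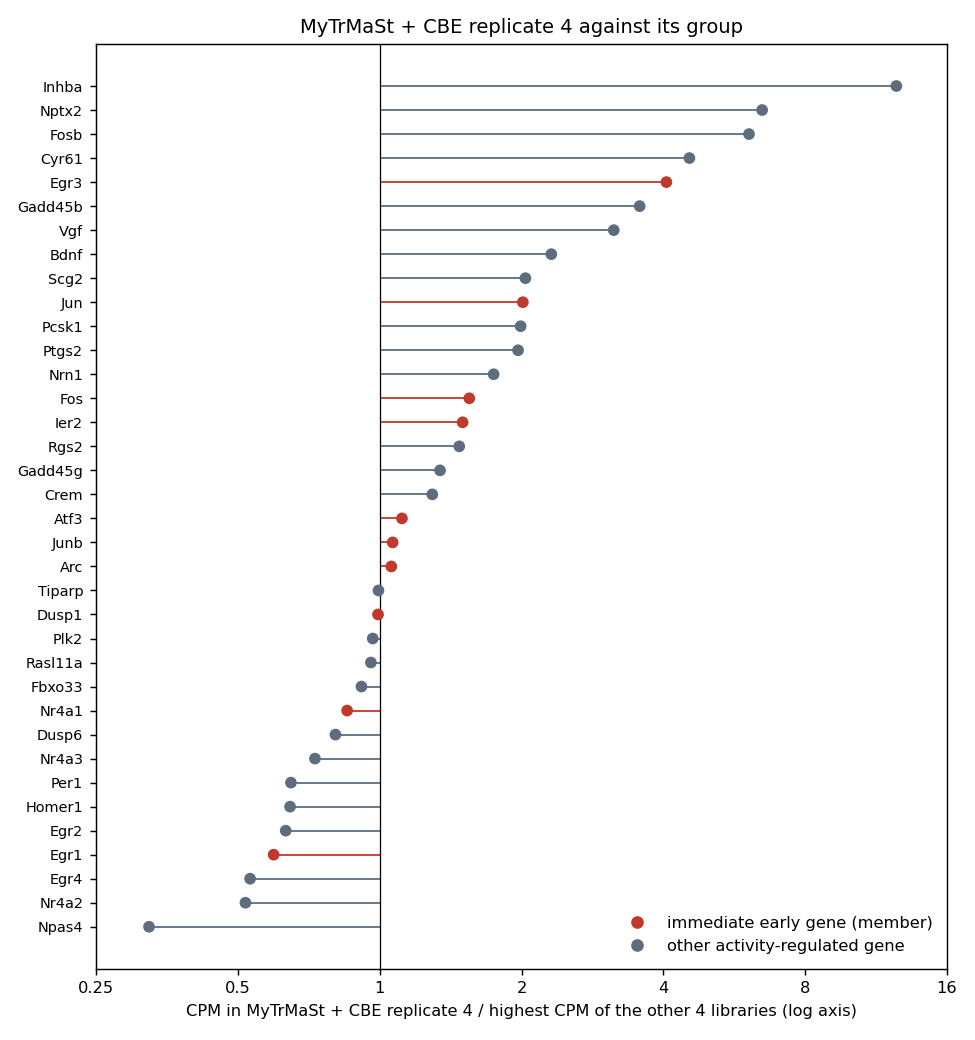
CPM in MyTrMaSt + CBE replicate 4 divided by the highest CPM of the other 4 MyTrMaSt + CBE libraries (log axis), for the 10 immediate early genes (red) and 26 other activity-regulated genes (blue-grey); the vertical line marks 1. Inhba (12.5), Nptx2 (6.48) and Fosb (6.08) lead, Egr3 stands at 4.06, and Egr1 (0.596) and Npas4 (0.324) lie on the other side.

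Across libraries within groups, some of the genes deviated together and some in opposite directions. Over all 14 libraries the deviations from the group mean correlated at a Pearson r of 0.861 for Fos and Jun, 0.814 for Egr3 and Jun, 0.779 for Junb and Arc and 0.715 for Junb and Nr4a1, as a description over libraries that also share depth. Egr1 deviated the other way from Ier2 (-0.596), Fos (-0.582), Jun (-0.581) and Egr3 (-0.539). Several of these values rested on MyTrMaSt + CBE replicate 4. Without it r was 0.460 for Fos and Jun and -0.066 for Egr3 and Jun, and for Egr1 it was -0.377 with Ier2, -0.073 with Fos, 0.124 with Jun and 0.180 with Egr3, while the pairs of Junb stayed at 0.718 with Arc and 0.744 with Nr4a1. WT + PBS replicate 1 was the lowest of its group for 7 of the 10 genes and MyTrMaSt + PBS replicate 3 the highest of its group for 7.

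The genes outside the 10 with the most similar profile were sought by Pearson r of log2(CPM + 0.5) over the 14 libraries among 9095 genes, again as a description that shares the groups. For Atf3 these were Serpina3n (0.965), Mpeg1 (0.960) and Rnase4 (0.959). Serpina3n, an acute-phase protease inhibitor of reactive astrocytes, went from 27.0 ± 8.64 to 1612 ± 217 CPM in WT and from 36.6 ± 7.36 to 630 ± 165 CPM in MyTrMaSt. Mpeg1, a pore-forming protein of macrophages and microglia, went from 5.66 ± 3.57 to 75.6 ± 10.2 CPM and from 3.68 ± 0.212 to 33.4 ± 5.58 CPM. For Arc the nearest were Snapc1 (0.864), Trim37 (0.850) and Wnt9a (0.848), for Nr4a1 Slain1 (0.877), Asap1 (0.856) and Gnal (0.848), and for Egr1 Zfhx2 (0.877), Mettl6 (0.845) and Slc25a14 (0.806). Without MyTrMaSt + CBE replicate 4, r with Egr1 was 0.857, 0.765 and 0.685. The neighbours of Egr3, which were Lingo1 (0.946), Sstr2 (0.941) and Gclc (0.907), and of Jun, which were Cgref1 (0.938), Scg2 (0.938) and Wscd1 (0.892), also had lower r without replicate 4, at 0.816, 0.744, 0.652, 0.813, 0.802 and 0.748. The nearest were Selk (0.859), Gfra2 (0.853) and Rbm6 (0.852) for Fos, Usp7 (0.849), 2900026A02Rik (0.82902) and Atg14 (0.800) for Junb, Stub1 (0.932), Stmn4 (0.931) and Mcf2l (0.924) for Ier2, and 1700047M11Rik (0.845), Rbm4b (0.820) and Cplx1 (0.809) for Dusp1.

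With all libraries in the fit, 4 of 26 other activity-regulated genes were called, all of them in MyTrMaSt. The interaction called 0 of the 26 with edgeR (4 at an unadjusted p below 0.05). Of the 26 other activity-regulated genes, 0 were called in WT with edgeR (3 at an unadjusted p below 0.05, 0 with DESeq2), with a median log2 fold change of -0.13, and 2 (7.69%) rose and 2 (7.69%) fell in MyTrMaSt, where 5.32% and 2.44% of all tested genes did. Without WT + PBS replicate 1 and MyTrMaSt + CBE replicate 4, 3 rose and 3 fell in WT, 23.1% of the list against 15.3% of all tested genes. In MyTrMaSt 3 rose and 7 fell in that fit, 38.5% of the list against 18.2% of all tested genes. Leaving out WT + PBS replicate 1 alone gave 2 calls in WT and 8 in MyTrMaSt, while calls over all genes rose from 1255 to 1527 and from 919 to 2246. Egr2, another EGR factor, was at 15.1 ± 2.64 CPM in MyTrMaSt + PBS and 4.36 ± 1.38 CPM in MyTrMaSt + CBE, so that it fell by 1.77 on the log2 scale (SE 0.284, adjusted p = 0.000658). Nr4a3, a paralog of Nr4a1, fell from 26.0 ± 4.68 to 11.8 ± 1.48 CPM (log2 fold change -1.14, adjusted p = 0.0425), a call that was lost in 11 of the 14 fits with 1 library left out (adjusted p up to 0.189). The calls of Egr2, Gadd45g and Rasl11a held in all 14. In WT, Egr2 and Nr4a3 had log2 fold changes of -0.61 and -0.57 that did not pass, and neither interaction passed (adjusted p = 0.307 and 0.657). Of the genes that rose, Gadd45g, a stress-inducible growth arrest gene, rose from 47.6 ± 1.91 to 105 ± 26.7 CPM in MyTrMaSt and Rasl11a from 7.72 ± 1.55 to 16.8 ± 2.45 CPM. In WT they went from 91.7 ± 40.2 to 126 ± 14.2 CPM and from 16.4 ± 4.69 to 19.8 ± 3.82 CPM, neither called. Npas4, a factor induced by neuronal activity, had log2 fold changes of -0.54 in WT and 0.33 in MyTrMaSt, neither called.

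Of 19 general immediate early and stress genes outside the 10, 4 (21.1%) rose in WT and 5 (26.3%) in MyTrMaSt, against 6.70% and 5.32% of all tested genes. The other 15 and 14 were not called, and the edgeR test called 0 as lower (10 genes had an unadjusted p below 0.05 in each genotype, in either direction). Sgk1, a kinase induced by glucocorticoids, rose from 130 ± 21.6 to 319 ± 18.5 CPM in WT (log2 fold change 1.30, edgeR adjusted p = 1.17e-05) and from 99.2 ± 12.5 to 296 ± 27.7 CPM in MyTrMaSt (1.57, adjusted p = 1.45e-06). Socs3, the feedback inhibitor of cytokine signalling through STAT3, rose by 2.90 and 2.29 on the log2 scale (1.69 in MyTrMaSt without replicate 4 of the CBE group), and Nfkbia, the inhibitor of NF-kappaB, by 1.06 and 1.003. With 1 library left out, the calls of these 3 genes held in all 14 fits in both genotypes. Myc passed in WT (0.94, adjusted p = 0.0411), a call lost in 8 of the 14 fits (adjusted p up to 0.134), and missed in MyTrMaSt (0.78, adjusted p = 0.0599). Zfp36 passed in MyTrMaSt (1.44), but not without MyTrMaSt + PBS replicate 1 or 2 (adjusted p up to 0.104), and missed in WT (0.94). Over the list, calls with 1 library left out numbered 3 to 6 in WT (6 without MyTrMaSt + CBE replicate 4) and 4 to 8 in MyTrMaSt (8 without WT + PBS replicate 1). Over all genes they ranged from 755 to 1527 in WT and from 437 to 2246 in MyTrMaSt, both highest without WT + PBS replicate 1. Without WT + PBS replicate 1 and MyTrMaSt + CBE replicate 4, 8 rose in each genotype (42.1% of the list, against 9.81% of all tested genes in WT and 1271 of 12102 in MyTrMaSt) and 1 fell in WT. The interaction called 0 of the 19 with edgeR (3 at an unadjusted p below 0.05) and 0 with DESeq2.

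Of the genes that accompany Atf3 in injured neurons, 11 were tested. In WT 2 rose and 1 fell, against 6.70% and 3.89% of all tested genes, and 2 rose in MyTrMaSt, against 5.32%. The other 8 and 9 were not called. The list had a median of -0.15 on the log2 scale for WT and 0.28 for MyTrMaSt. By group mean, Gap43 was lower with CBE in both (666 to 524 and 665 to 530 CPM). Of the other uncalled genes, Stmn2, Sox11, Gal, Ecel1 and Gadd45a were lower in WT, and Nts and Vip higher. In MyTrMaSt, Stmn2, Ecel1, Gadd45a and Cckbr were lower, and Sox11, Gal, Nts and Vip higher. Without WT + PBS replicate 1 and MyTrMaSt + CBE replicate 4, 5 were called in WT (2 rose and 3 fell) and 3 in MyTrMaSt, or 45.5% and 27.3% of the list against 15.3% and 18.2% of all tested genes in that fit. The small heat shock protein Hspb1 rose from 15.6 ± 5.11 to 99.0 ± 19.3 CPM in WT (log2 fold change 2.71, edgeR adjusted p = 0.000611) and from 15.0 ± 7.02 to 112 ± 69.2 CPM in MyTrMaSt (2.86, adjusted p = 0.000269). The cell cycle inhibitor Cdkn1a rose from 55.5 ± 9.08 to 213 ± 15.5 CPM in WT (log2 fold change 1.92) and from 56.6 ± 6.85 to 246 ± 218 CPM in MyTrMaSt (log2 fold change 2.12). Its level in MyTrMaSt + CBE replicate 4 was 613 CPM against 98.5 to 276 CPM in the other 4, and without that library the log2 fold change was 1.45 (adjusted p = 0.00528). Hspb1 was at 230.4 CPM there against 62.4 to 109 CPM, with a log2 fold change of 2.42 without it. Cckbr, a receptor for cholecystokinin, fell by 0.78 in WT. With 1 library left out, the call of Hspb1 held in all 14 fits in both genotypes. That of Cdkn1a was lost in WT without WT + CBE replicate 2 or 3 (adjusted p up to 0.0629) and in MyTrMaSt without MyTrMaSt + PBS replicate 1 or 2 (up to 0.0517), and that of Cckbr in 7 of the 14 fits (up to 0.158). In MyTrMaSt + CBE replicate 4, 9 of the 11 were the highest of their group, against 28.5% of all tested genes. The integrated stress response, through which ATF4 induces Atf3, was followed by 9 tested genes, Atf4 included. Of these, Nupr1 (1.70) and Slc7a11 (1.73) rose in WT and 0 were called in MyTrMaSt with edgeR (3 at an unadjusted p below 0.05), where DESeq2 called 1. The interaction called 0 of the 9 with edgeR (3 at an unadjusted p below 0.05), and other fits called up to 2. Without WT + PBS replicate 1 and MyTrMaSt + CBE replicate 4, 3 of 10 tested genes of this list rose in each genotype, where 9.81% of all tested genes rose in WT and 1271 of 12102 in MyTrMaSt. Without WT + PBS replicate 1 alone, 4 were called in MyTrMaSt, where calls over all genes rose from 919 to 2246.

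Partners and regulators of the immediate early factors are read against the 6.70% of all tested genes that rose and the 3.89% that fell in WT, and the 5.32% and 2.44% in MyTrMaSt. Of 10 other AP-1 factors and partners, Batf3 rose in WT, from 2.34 ± 0.320 to 10.97 ± 3.11 CPM (log2 fold change 2.25, edgeR adjusted p = 0.000291), and Maff rose in MyTrMaSt (1.96, adjusted p = 0.0321). The call of Batf3 held with any 1 of the 14 libraries left out. Maff was at 1.28 without MyTrMaSt + CBE replicate 4 (adjusted p = 0.0210), and its call was lost without MyTrMaSt + PBS replicate 1, 2 or 3 (up to 0.137). Without MyTrMaSt + CBE replicate 4, 3 genes of this list were called in WT. Calls over all genes in WT ranged from 755 to 1527 with 1 library left out, against 1255 with all libraries. Among 20 upstream kinases and nuclear factors Camk2a fell in WT (-0.56, adjusted p = 0.0406), Camk4 fell in MyTrMaSt (-0.66, adjusted p = 0.0367) and Crtc2, a CREB coactivator, rose in MyTrMaSt (0.58, adjusted p = 0.0411). These calls were near the threshold: with 1 library left out, Camk2a was lost in 10 of 14 fits (adjusted p up to 0.201), Camk4 in 9 (up to 0.236) and Crtc2 in 8 (up to 0.199). The calls of the list numbered 0 (without WT + PBS replicate 3) to 5 (without WT + PBS replicate 1) in WT, and 0 (without WT + CBE replicate 2) to 8 (without WT + PBS replicate 1) in MyTrMaSt. Without WT + PBS replicate 1, calls over all genes also rose, from 1255 to 1527 in WT and from 919 to 2246 in MyTrMaSt. Of the 7 MAP kinase phosphatases other than Dusp1, Dusp3 (-0.78) and Dusp8 (-0.73) fell in WT, both lost without WT + CBE replicate 2 (adjusted p = 0.0975 and 0.0576), and 0 were called in MyTrMaSt with edgeR (0 at an unadjusted p below 0.05, 0 with DESeq2). The interaction called 0 of the 10 AP-1 factors and partners, 0 of the 20 upstream genes and 0 of the 7 phosphatases with edgeR. At an unadjusted p below 0.05 there were 3, 5 and 2, and other fits called up to 2 of the upstream genes. Without WT + PBS replicate 1 and MyTrMaSt + CBE replicate 4 the upstream genes called numbered 7 (35% of the list) in WT and 8 (40%) in MyTrMaSt, against 15.3% and 18.2% of all tested genes.

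Other cell types were followed by their markers, beside the 6.70% of all tested genes that rose and 3.89% that fell in WT and the 5.32% and 2.44% in MyTrMaSt. Astrocyte markers rose for 3 of 6 in each genotype and 1 fell in WT, and summed to 1130 to 1347 CPM with PBS and 2075 to 2272 CPM with CBE in WT, and to 1214 to 1330 and 1890 to 2142 CPM in MyTrMaSt. Oligodendrocyte markers fell for 5 of 6 in WT and for 0 of 6 in MyTrMaSt with edgeR (3 at an unadjusted p below 0.05). Their interaction was called for 0 of 6 (3 at an unadjusted p below 0.05). Endothelial markers were called for 0 of 5 in WT and fell for 1 in MyTrMaSt, and choroid plexus markers were called for 0 of 4 in both (in WT and for the choroid plexus also 0 at an unadjusted p below 0.05). Of the infiltrating myeloid markers 2 of 5 were listed and 1 was tested. That gene, named after its values were seen, was Lcn2, a lipocalin of neutrophils that reactive astrocytes also make. It rose from 3.07 ± 1.96 to 549.6 ± 187 CPM in WT and from 3.43 ± 3.73 to 22.0 ± 4.10 CPM in MyTrMaSt, and its interaction of -4.84 passed (edgeR adjusted p = 0.00847). Of the blood markers 1 of 4 was listed and not called. Their part in the levels of the immediate early genes was not tested.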

How the data were processed

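The counts are whole reads per gene as deposited by the authors, who used a bulk form of MARSseq, which reads the 3' ends of transcripts, and hisat on mm10, keeping uniquely placed reads; the submitters' notes also name cutadapt and HTSeq. Use of strand and of molecular identifiers is not given in the sources used here. The authors' normalised table and their table of means, fold changes and p values were not used. Counts were tested in R 4.3.3 with edgeR 4.0.16 (filterByExpr, TMM, quasi-likelihood F test, 1 mean per group, Benjamini-Hochberg adjustment). On simulated counts of the WT comparison (11683 genes), 55 of 100 genes changed 2-fold and 98 of 100 changed 4-fold were recovered, with 6 false calls. Replicates were separate mice, and pairs of a group differed by more than sampling noise (chi-square per degree of freedom 2.31 to 20.2). The 10 genes, the lists and the tests were chosen with earlier results of these data known. Genes named besides the 10 are up to 4 per list, direction and CBE comparison with the smallest adjusted p. The 3 nearest profiles of each gene are also named. Others were chosen after their values were seen. These are the genes given for MyTrMaSt + CBE replicate 4, Npas4, Lcn2, and the neuron markers and injury genes compared by group mean. Alternatives were RLE factors, library totals, DESeq2 1.42.0, limma 3.58.1 voom, no filter, at least 10 counts in every library, only the groups compared, the replicate number as a block, the Xist level as a covariate and each library left out; a GC offset per library, leaving out 2 libraries together and leaving out Atf3 were added after seeing the data. The GC content and gene positions came from GENCODE on GRCm38, and promoter sequences from RefSeq (GRCm38.p6).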

Additional observations from a re-analysis of the deposited data

Results flagged for a closer look

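In the group of 5 MyTrMaSt + CBE libraries, the level of each of the 10 genes was checked for a library far from the others, taking a gap to the nearest library above 0.71 of the whole range as far; chance alone marks about 5% of such groups. It was found for 4 of the 10 genes, each time in replicate 4. Fos was at 64.0 CPM there, with the next highest library at 41.3 CPM. Egr3 was at 189 CPM against 46.6 CPM, Jun at 166 CPM against 82.7 CPM and Ier2 at 45.8 CPM against 30.5 CPM. The 4 genes share the library and are not independent of each other. Groups of 3 were not checked, so the low total and the GC deviation of WT + PBS replicate 1 are not covered.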

How the results depend on the processing

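Arc in WT and Atf3 in both genotypes kept their call in every fit that tested them (Atf3 was not tested with at least 10 counts required in every library). Atf3 had counts under 10 in 5 of the 6 PBS libraries, and the causes of the changes below were not tested. With at least 10 counts in every library, none of the 10 genes rose in WT or MyTrMaSt (0 and 0) and 2 fell in WT. The number that fell in WT was 1 with only the groups compared and 1 with the Xist covariate. In MyTrMaSt the number that fell was 1 with the Xist covariate and 4 without WT + PBS replicate 1 and MyTrMaSt + CBE replicate 4. Leaving out both libraries gave 2 of the 10 called between the genotypes with CBE and 1 with PBS, and DESeq2 gave 1 with PBS. Over all genes, calls in WT went from 1255 to 690 with at least 10 counts, 493 with only the groups compared and 672 with Xist, and calls in MyTrMaSt from 919 to 1735 with only the groups compared and 2198 without both libraries. The interaction had 58 calls, and 129 with DESeq2, 18 with at least 10 counts, 9 with Xist and 130 without both libraries. Between the genotypes with CBE there were 301 calls, and 79 with at least 10 counts and 476 without both libraries. With PBS there were 22, and 274 with DESeq2, 2 with only the groups compared, 3 with Xist, 14 with the GC offset and 82 without both libraries. With Atf3 left out, the change of activity minus stress genes was 0.149 in WT, the opposite sign, and -0.242 in MyTrMaSt. The replicate number as a block gave 1 of the 10 genes falling in MyTrMaSt (Egr1 had an adjusted p of 0.195 and Arc one of 0.117), 377 calls there, 32 for the interaction and 7 between the genotypes with PBS, but the numbers do not pair the mice: 3 of 18 same-numbered pairs had a correlation of deviations over 0.1 (-0.18 to 0.17). Log2 values that changed sign under the block were Egr3 -0.37 in MyTrMaSt, -0.26 for the interaction and -0.15 between the genotypes with CBE, Jun -0.26 in MyTrMaSt, and Junb 0.013 and Nr4a1 0.028 between the genotypes with PBS. None of the sign changes listed here or below concerns a gene called in that comparison. Those with the Xist covariate rest mainly on WT + CBE replicate 2 and MyTrMaSt + CBE replicate 4. With the Xist covariate they were Egr3 1.30 in WT, -0.14 in MyTrMaSt and -1.44 for the interaction, Jun 0.27, -0.18 and -0.46 in the same order, Fos -0.25, Egr1 0.012 and Nr4a1 -0.050 for the interaction, and Fos 0.11, Junb 0.19 and Nr4a1 0.070 between the genotypes with PBS. With the GC offset they were Egr1 0.039 for the interaction and, between the genotypes with PBS, Egr3 -0.28, Jun -0.032 and Junb 0.19. With library totals, Junb was 0.048 and Nr4a1 0.019 between the genotypes with PBS and Nr4a1 -0.018 for the interaction, and with at least 10 counts these were 0.042, 0.015 and -0.017, with Nr4a1 at -0.0014 between the genotypes with CBE. Under limma voom Jun was -0.032 in MyTrMaSt. Without both libraries Egr3 was -0.35 in MyTrMaSt, -0.11 between the genotypes with CBE and -0.14 with PBS, Fos -0.042 for the interaction and Jun -0.24 in MyTrMaSt. With 1 library left out, the genes falling in WT numbered 1 (without WT + CBE replicate 1) to 5 (without MyTrMaSt + CBE replicate 4) and those falling in MyTrMaSt 0 (without MyTrMaSt + PBS replicate 1) to 3 (without WT + PBS replicate 1), while 0 to 1 differed between the genotypes with CBE and 0 to 1 with PBS. Over all genes, calls ranged from 755 (without WT + CBE replicate 2) to 1527 (without WT + PBS replicate 1) in WT, from 437 (without MyTrMaSt + PBS replicate 3) to 2246 (without WT + PBS replicate 1) in MyTrMaSt, from 24 to 105 for the interaction, from 215 to 425 between the genotypes with CBE and from 5 (without MyTrMaSt + PBS replicate 2) to 467 (without WT + PBS replicate 2) with PBS. Log2 values that changed sign ranged from -0.37 to 0.85 for Egr3, -0.25 to 0.17 for Jun and -0.085 to 0.070 for Junb in MyTrMaSt. Between the genotypes with CBE they ranged from -0.10 to 1.11 for Egr3, -0.13 to 0.013 for Arc and -0.24 to 0.20 for Nr4a1. With PBS they ranged from -0.14 to 0.20 for Egr3, -0.73 to 0.043 for Atf3, -0.023 to 0.18 for Jun, -0.16 to 0.077 for Junb and -0.22 to 0.12 for Nr4a1. For the interaction they ranged from -0.17 to 1.04 for Egr3 and -0.21 to 0.24 for Nr4a1.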
